A study of Mus musculus with 12 samples.

Results

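The p53 target genes are genes that the transcription factor p53 activates when cells meet DNA damage or another stress. Here 35 of them, chosen by name, were read from the deposited tables of 25759 genes, and all 35 had an entry in every table. The tables describe mouse embryonic stem cells (ESCs) of the line HATX3, in which doxycycline turns on the long noncoding RNA Xist, and ask what loss of the Mediator kinase Cdk8 changes. Uninduced wild-type (WT) samples 1, 2 and 3, WT samples 1, 2 and 3 after 48 h of Xist induction, uninduced ΔCdk8 clones 8, 11 and 15, and the same clones after 48 h of Xist induction make 4 groups of 3 libraries. Every sample, the controls included, carries the inducible Xist. The WT samples are the parental cells, a polyclonal population that began as haploid and became diploid, and each ΔCdk8 sample is 1 clone in which Cas9 removed a small part of the first Cdk8 exon with its start codon. The sources do not say whether the WT numbers mark separate cultures, so a p-value over them may measure technical spread.

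p53, encoded by Trp53, binds DNA as a tetramer and raises transcription of genes that stop the cell cycle, start apoptosis, repair DNA and adjust metabolism. In unstressed cells the ubiquitin ligase Mdm2, itself a p53 target, keeps the protein low, and its relative Mdm4 holds back its activity. Mouse ESCs are known for high levels of p53 compared with most differentiated cells.

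The libraries held between 22170087 and 60798578 reads on genes, and introns took 4.77% to 7.59% of them. The 7 markers of pluripotent cells were all above 1 TPM (the authors' level per transcript length, scaled to the same total in each library) in every library, and summed to between 1524 and 3034 TPM. Of these 7, Nanog, Sox2, Esrrb, Klf4 and Tfcp2l1 were higher in all uninduced clones than in all uninduced WT samples, for Tfcp2l1 at 76.7 to 102 against 10.01 to 39.4 TPM. Sox2, Zfp42 and Esrrb were higher in all induced than in all uninduced WT samples, for Esrrb at 209.7 to 247 against 32.4 to 118 TPM. Between induced genotypes Nanog and Tfcp2l1 were higher and Esrrb lower in all clones. Markers of other cell types differed between libraries too. The 4 trophoblast markers summed to 39.3 and 28.7 TPM in WT sample 1, uninduced and induced, to between 0.223 and 1.41 TPM in WT samples 2 and 3, and to between 10.9 and 40.6 TPM in the clones, most of it Hand1. The 5 fibroblast markers summed to 5.54 to 17.4 TPM in WT and 17.8 to 32.3 TPM in ΔCdk8 libraries, most of it Thy1, while Col3a1 and Lum were near 0. The 6 primitive endoderm markers summed to between 5.65 and 11.5 TPM, and the 6 ectoderm and mesoderm markers to between 4.36 and 6.18 TPM in WT and 5.76 and 14.9 TPM in ΔCdk8 libraries. Gata4 and Eomes were higher in all clones than in all WT samples of their condition, for Eomes at 3.84 to 14.1 against 1.45 to 3.64 TPM uninduced. The part of these markers in the results was not tested, and in bulk RNA fewer cells of a type and less RNA per cell cannot be told apart. Cdk8 itself was counted at 51.5 to 74.2 TPM in WT libraries, at 34.4 and 33.4 TPM in clone 8, 56.8 and 57.8 TPM in clone 11 and 85.3 and 84.9 TPM in clone 15, uninduced and induced. Clone 8 lay below every WT library, clone 11 within the WT range and clone 15 above it. The tables give 1 value for the whole gene and none for the deleted stretch alone, so the deletion was not checked here and the clones are named as labelled. The study relied on immunoblots for the loss of Cdk8 protein in these clones and also assayed its transcript by PCR over later exons, and neither measure is in the tables.

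The p53 target genes as a set stood higher after Xist induction in WT samples and lower in ΔCdk8 than in WT samples. In uninduced cells the genotype shift lay mostly in clones 8 and 15. Their median log2 TPM ratios to the WT mean were -0.88 and -0.995, against -0.26 in clone 11. Clones 8 and 15 also held far less Trp53 RNA than clone 11, whose part was not tested. Of the 35 genes, 34 had a mean of at least 1 TPM over the 12 libraries, between 1.59 and 552 TPM. Fas was the exception. In uninduced cells, the 3 clones lay below all 3 WT samples for 15 of these 34 genes, against 7.22% of all 12131 genes at that level, and above them for 1, Sesn1, against 16.3%. After Xist induction the clones lay below every WT sample for 25 of 34, against 10.6% of all genes, and above for 2, Sesn1 and Ddb2, against 18.3%. Within WT, 22 of 34 were higher in all induced than in all uninduced samples, against 12.6% of all genes, and none lower, against 14.4%. Within ΔCdk8, the induced and uninduced clones overlapped for all 34, where 1.34% of all genes did not overlap with induced clones higher and 3.60% with induced clones lower.

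**Figure D1:**
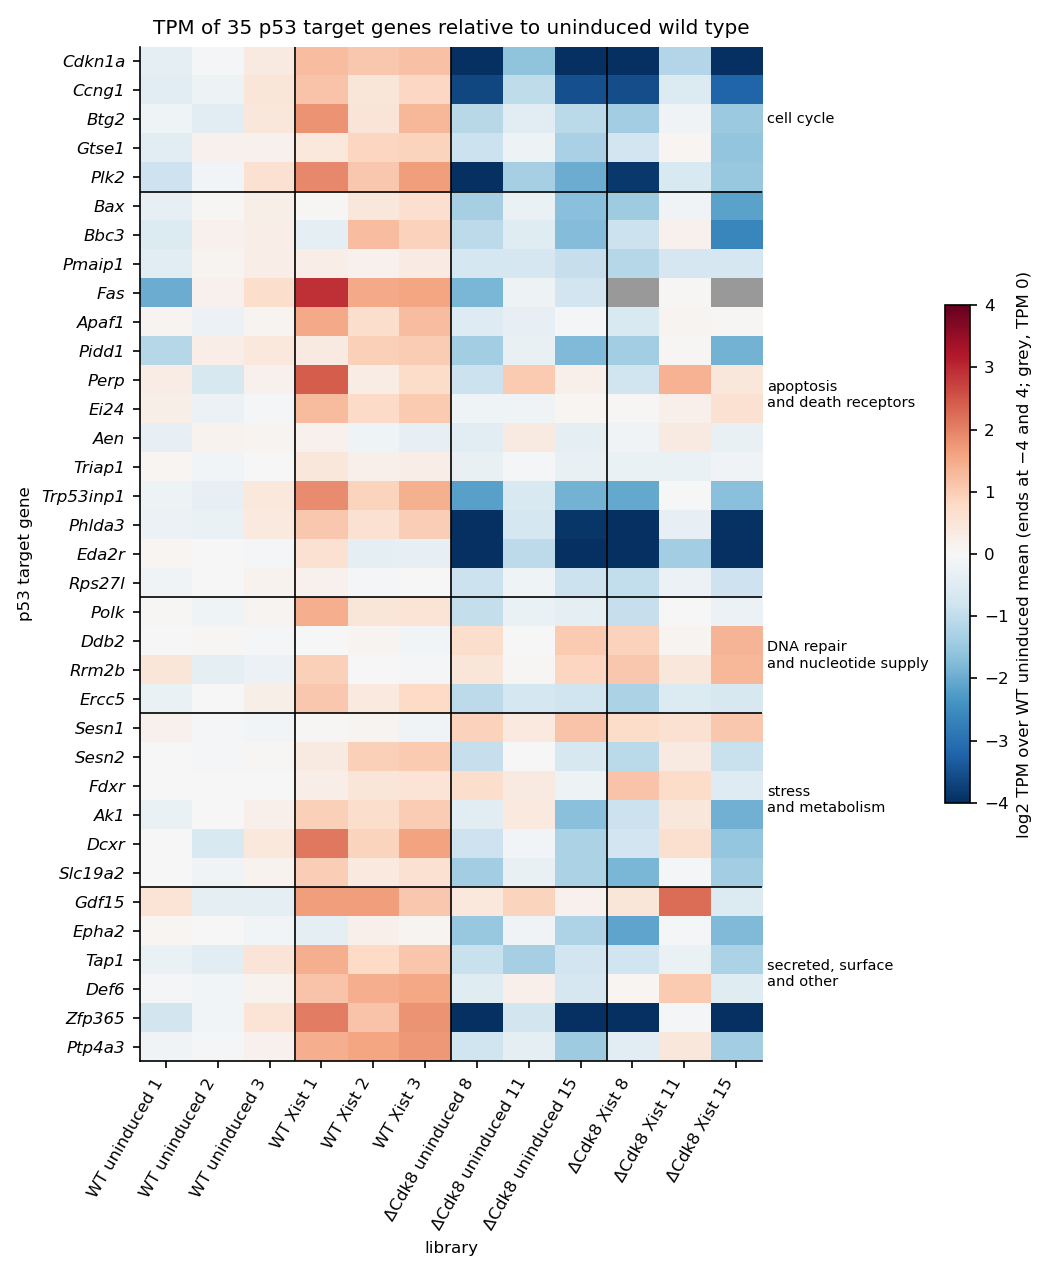
TPM of the 35 p53 target genes (rows, by role) in the 12 libraries (columns), as log2 over the mean of the 3 uninduced WT samples; colours end at -4 and 4, and grey marks a TPM of 0. The 3 columns of induced WT are mostly red, the columns of clones 8 and 15 mostly blue, and those of clone 11 lie between them and WT for most genes.

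Few of these differences passed a test across all genes. A gene was called at an adjusted p under 0.01 in edgeR's quasi-likelihood test if its fold change also exceeded 2. Between induced and uninduced WT samples edgeR called 2 of the 35 genes higher, Def6 and Ptp4a3, where 0.150% of all 14006 genes tested were called higher and 1.01% lower, and it called none of the 35 lower. At an unadjusted p under 0.05, 25 of the 35 were higher, against 10.8% of all genes, and 0 were lower, against 10.4%. In 1 fit of the 12 libraries 11 of the 35 were higher at that threshold, against 6.92% of all genes. With the WT number as a block edgeR called 7 higher (Apaf1, Cdkn1a, Dcxr, Def6, Ei24, Ptp4a3 and Trp53inp1), against 1.47% of all genes. DESeq2 called 11 higher, against 1.59%, namely these 7 and Btg2, Fas, Plk2 and Zfp365. The 2 edgeR calls were lost without WT sample 2 and without WT sample 3, where no gene at all was called. Without WT sample 1, 5 were called higher (Cdkn1a, Def6, Ei24, Ptp4a3 and Sesn2), against 1.36% of all genes. The median log2 fold change of the 35 genes was 0.87, and that of all genes tested 0.03.

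Between genotypes, edgeR called none of the p53 target genes, nor any other gene (0%), in either condition or direction. This depends on the test. The study reported genes up and down between uninduced genotypes at these thresholds with a Wald test. DESeq2 called 386 of all 14646 genes there, in both directions together. In uninduced cells 17 of the 34 tested had an unadjusted p under 0.05 and a lower level in ΔCdk8, against 8.49% of all 14646 genes, and 1, Sesn1, a higher one, against 11.9%. The 17 fell to 6 without WT sample 3 (all genes 3.30%), 6 without clone 8 (4.21%), 7 without clone 15 (5.38%), 11 without WT sample 2 (3.67%) and 10 of 35 in 1 fit of the 12 libraries (9.49%), and came to 27 without clone 11 (18%). DESeq2 called 1 of them lower, Cdkn1a, against 0.833% of all genes. After Xist induction the counts were 26 of 35 lower, against 11% of all 14143 genes, and 1, again Sesn1, higher, against 14.9%. There DESeq2 called 14 lower (Apaf1, Btg2, Dcxr, Ercc5, Fas, Gtse1, Pidd1, Plk2, Pmaip1, Polk, Ptp4a3, Slc19a2, Tap1 and Trp53inp1), against 1.98% of all genes, and gave no adjusted p for Cdkn1a, Phlda3 and Eda2r. The median log2 fold change of the p53 target genes was -0.87 in uninduced and -1.48 in induced cells, against 0.03 over all genes in both. Without clone 11 edgeR called 1 gene lower in uninduced cells, Eda2r, against 0.0133% of all genes, and 7 lower in induced cells (Ccng1, Cdkn1a, Eda2r, Phlda3, Slc19a2, Trp53inp1 and Zfp365), against 0.260%. The fits without clone 11 rest on clones 8 and 15, which share low Trp53 RNA, so genotype cannot be told apart from it there.

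Trp53 and the 2 genes that hold p53 in check are given next to its targets. Trp53 was at 381, 486 and 478 TPM in uninduced and 515, 643 and 675 TPM in induced WT samples, each time in the order 1, 2 and 3. In the clones, listed in the order 8, 11 and 15 throughout, it was at 30.1, 527 and 29.7 TPM uninduced and 27.2, 511 and 19.9 TPM induced. Clone 11 held Trp53 RNA near the WT range, above it before and just below it after induction, and clones 8 and 15 held far less than any WT sample. The genotypes overlapped in uninduced cells, where the clones differed widely among themselves (log2 fold change -1.18, SE 1.00, edgeR adjusted p = 0.494). Mdm2 was at 78.9, 80.3 and 95.3 TPM in uninduced and 296, 156 and 194 TPM in induced WT samples. It was at 32.5, 61.1 and 43.1 TPM in uninduced and 32.6, 77.6 and 43.3 TPM in induced clones. All clones lay below all WT samples for Mdm2, and all induced WT samples above all uninduced ones. The log2 fold change of Mdm2 with induction in WT was 1.40 (SE 0.22, edgeR adjusted p = 0.0213), which misses the threshold of 0.01, as did the genotype difference in induced cells (-2.18, SE 0.38, edgeR adjusted p = 0.0542). Mdm4 was at 41.9, 24.2 and 27.5 TPM in uninduced and 79.1, 43.5 and 53.2 TPM in induced WT samples, and at 24.8, 32.9 and 25.9 TPM in uninduced and 22.7, 39.3 and 29.7 TPM in induced clones. For Mdm4 the uninduced genotypes overlapped and the induced ones did not. Of the list of 16 genes for p53 and its regulators, which includes kinases such as Atm and Chek2 and the relative Trp73, 14 were tested and edgeR called none in any comparison without a block. With the WT number as a block it called Mdm2 higher in induced WT (log2 fold change 1.35, SE 0.18, edgeR adjusted p = 0.00686). At an unadjusted p under 0.05, 3 of 14 were lower in uninduced ΔCdk8 (Mdm2, Trp53bp1 and Hipk2), against 8.49% of all genes. In induced ΔCdk8, 8 of 14 were lower (these 3 with Mdm4, Atm, Chek2, Ppm1d and Trp73), against 11%, and in induced WT 5 were higher (Trp53, Mdm2, Mdm4, Ppm1d and Rchy1), against 10.8%. Hipk2, a kinase that phosphorylates p53, was at 5.48, 5.96 and 7.14 TPM in uninduced WT and 4.77, 2.56 and 3.74 TPM in uninduced clones (log2 fold change -0.96, SE 0.24, edgeR adjusted p = 0.144). Ppm1d, the p53-inactivating phosphatase WIP1, was at 35.6, 28.8 and 33.5 TPM in induced WT and 13.5, 25.2 and 18.9 TPM in induced clones (log2 fold change -0.86, SE 0.25, edgeR adjusted p = 0.097). Clone 11 was the lowest clone for Hipk2 and the highest for Ppm1d, and for both genes all clones were below all WT samples of that condition.

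Some promoters of the p53 target genes hold a sequence like the element p53 binds, which consists of 2 half-sites of 10 bases each. The promoter table of RefSeq (GRCm38.p6, from 250 bases before to 50 bases after each gene's start) held 29 of the 35 genes; Trp53inp1, Perp, Pmaip1, Ddb2, Rrm2b and Ptp4a3 had no entry. A full p53 element with at most 2 mismatches outside the core C and G of each half-site was found in 5 of the 29, or 17.2%, against 0.392% of 27025 promoters in the table. With at most 3 mismatches it was found in 8, or 27.6%, against 1.63%, the additional genes being Bbc3, Aen and Sesn1. A search for 2 copies of CATG with 6 letters between matched 1 of 29, Cdkn1a, against 0.833% of all promoters, and a single half-site with the core CATG, which can lie within the former, matched Cdkn1a and Ei24, against 2.24%. Each pattern equals its own reverse complement, so that 1 search covers both strands. The 5 elements are shown because they are the closest matches next to genes of this set, 5′ to 3′ on the strand of the gene, with the 20 bases of the element in capitals and 5 flanking bases on each side in lower case. A match is a description of the letters and does not show binding. The genes were chosen by name as p53 targets, so a higher share than over all promoters is no independent test. The search with mismatches was chosen after the data were seen.
Cdkn1a, chr17:29090923-29090952, forward strand: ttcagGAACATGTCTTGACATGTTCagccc
Ccng1, chr11:40755457-40755486, reverse strand: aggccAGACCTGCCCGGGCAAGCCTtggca
Gtse1, chr15:85859940-85859969, forward strand: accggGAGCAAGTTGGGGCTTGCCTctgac
Rps27l, chr9:66946291-66946320, forward strand: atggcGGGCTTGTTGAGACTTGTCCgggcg
Zfp365, chr10:67912701-67912730, reverse strand: tagcaAGACTAGGCTGGGCAAGACTggcac
The Zfp365 element had 2 mismatches and the others 1. The first base of the element lay 51 bases before the start of Cdkn1a, 195 before that of Ccng1, 63 before that of Zfp365, 117 before that of Rps27l and 1 before that of Gtse1. The annotation of the same build places the elements of Cdkn1a, Ccng1 and Zfp365 upstream of the gene, that of Rps27l in an intron and that of Gtse1 in an exon, since it lists earlier starts for these genes.

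The 5 genes that act on the cell cycle were lower in ΔCdk8 in both conditions and higher in induced WT samples, each with an unadjusted p under 0.05 in all 3 comparisons, against 8.49%, 11% and 10.8% of all genes, and with all samples and no block edgeR called none of them. In uninduced cells only Cdkn1a and Plk2 of the 5 kept such a p without WT sample 3, without clone 8 or without clone 15. Cdkn1a (ENSMUSG00000023067, chr17:29090979-29100722 of GRCm38), which encodes the inhibitor p21 of cyclin-dependent kinases, was at 28.4, 35.1 and 47.4 TPM in uninduced WT samples. After Xist induction it was at 87.04, 78.1 and 82.95 TPM. The clones held 1.80, 12.1 and 1.45 TPM uninduced and 1.48, 16.6 and 2.03 TPM induced. No clone reached the lowest WT sample in either condition, and clone 11 stood several-fold above clones 8 and 15. The means were 36.95 ± 9.65 TPM (SD, n = 3) in uninduced WT and 5.11 ± 6.04 TPM (SD, n = 3) in uninduced ΔCdk8. The log2 fold change between them was -2.93 (SE 0.87), with an adjusted p of 0.169 in edgeR and of 0.00393 in DESeq2. Induction in WT gave a log2 fold change of 1.23 (SE 0.21, edgeR adjusted p = 0.0276, and 0.00473 with the WT number as a block). The blocked fit and DESeq2 (adjusted p = 1.68e-05) called the induction, and the fit without a block did not.

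Ccng1 (ENSMUSG00000020326, chr11:40748552-40755311), which encodes cyclin G1, a partner of the phosphatase that acts on Mdm2, was at 89.6, 108 and 172 TPM in uninduced and 269.7, 173 and 218 TPM in induced WT samples. The clones held 9.97, 61.4 and 10.9 TPM uninduced and 10.6, 84.1 and 13.3 TPM induced. All clones lay below all WT samples, clones 8 and 15 by the wider margin, and the lowest induced WT sample lay just above the highest uninduced one. Its log2 fold change between genotypes was -2.23 (SE 0.78, edgeR adjusted p = 0.196) uninduced and -2.67 (SE 0.82, edgeR adjusted p = 0.109) induced. Plk2, a polo-like kinase, was at 19.6, 31.8 and 52.2 TPM in uninduced WT samples and at 131, 72.5 and 111 TPM after induction. It was at 1.86, 13.7 and 8.68 TPM in uninduced and 2.36, 22.8 and 11.98 TPM in induced clones. WT and ΔCdk8 samples did not overlap within a condition, and among the induced samples the log2 fold change was -3.19 (SE 0.74), with an adjusted p of 0.0681 in edgeR and of 4.10e-05 in DESeq2.

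Btg2, an antiproliferative protein of mRNA decay, was at 25.04, 20.97 and 37.9 TPM in uninduced and 96.2, 39.9 and 69.8 TPM in induced WT samples. In the clones it was at 12.9, 20.5 and 13.2 TPM uninduced and 10.6, 25.5 and 9.96 TPM induced. The uninduced clone 11 lay just under the lowest uninduced WT sample, while after induction all clones were well below the WT range (log2 fold change -2.26, SE 0.50, adjusted p = 0.0628 in edgeR and 0.000132 in DESeq2). Gtse1, a microtubule-binding protein that takes p53 out of the nucleus, was at 137, 206 and 204 TPM in uninduced and 245, 334 and 339.9 TPM in induced WT samples. It was at 99.9, 159 and 74.4 TPM in uninduced and 106, 194 and 61.5 TPM in induced clones. Uninduced clone 11 lay within the WT range, and the genotypes separated only after induction, in all 3 clones.

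**Figure D2:**
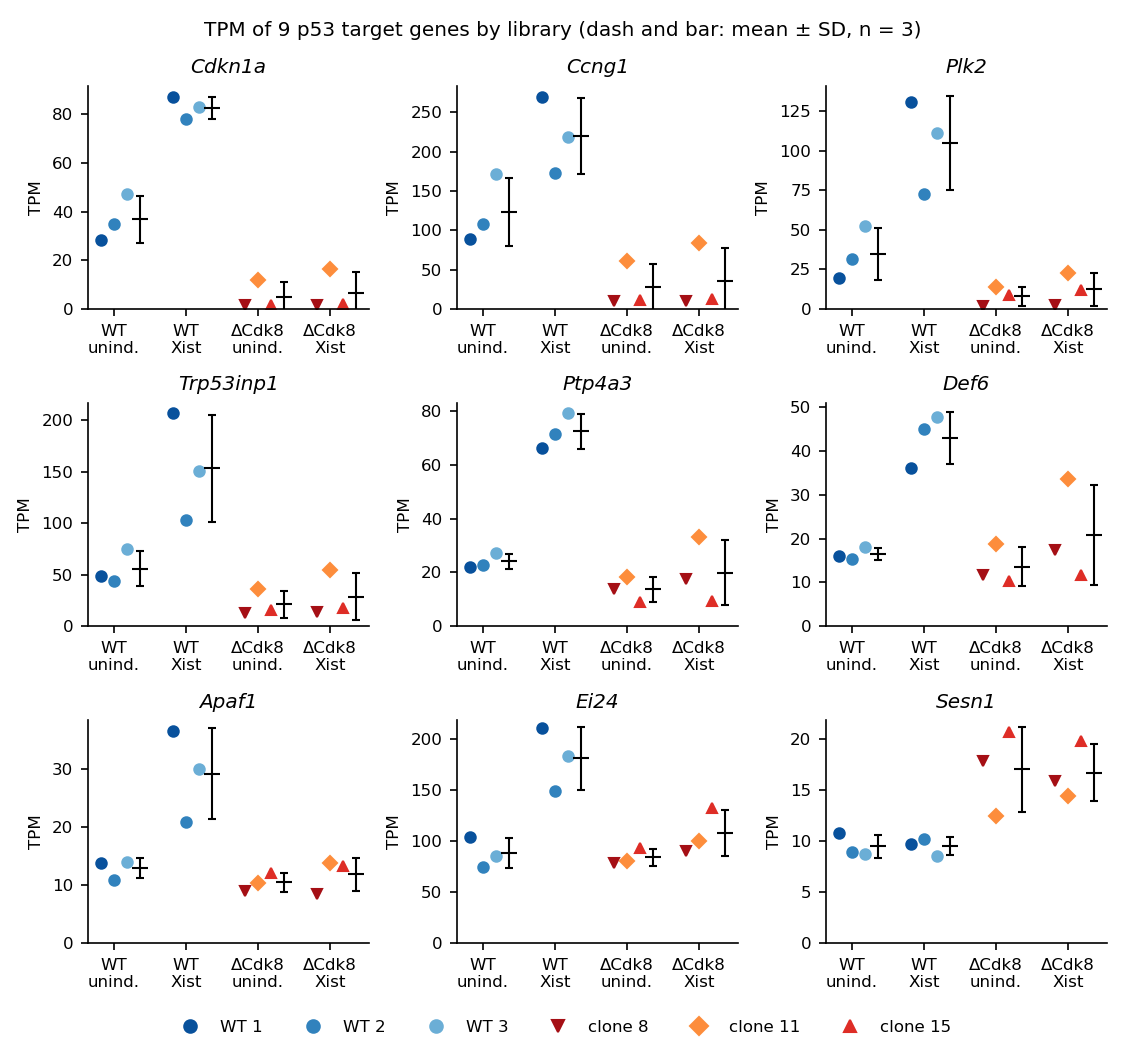
TPM (linear axes from 0) of 9 p53 target genes in each library by group, with the mean and SD of the 3 samples beside the points; error bars are cut at 0. Induced WT samples stand highest except for Sesn1, which is higher in every clone than in every WT sample, and clone 11 lies above clones 8 and 15 in the first 6 panels.

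Of the 14 genes in apoptosis and death receptor signalling, 13 were tested in uninduced cells, and 6 of them were lower in ΔCdk8 at an unadjusted p under 0.05, against 8.49% of all genes. Of these 6, only Pmaip1 and Trp53inp1 kept such a p without WT sample 3, without clone 8 or without clone 15. Without clone 11 all 6 kept it and Aen, Eda2r, Phlda3, Pidd1 and Triap1 joined them, against 18% of all genes. After induction 11 of 14 were lower in ΔCdk8, against 11% of all genes, and 8 of 14 were higher in induced than in uninduced WT samples, against 10.8%, at the same threshold. Bax, whose product opens the outer mitochondrial membrane, was among the most abundant, at 297, 381 and 431 TPM in uninduced and 379, 507 and 583 TPM in induced WT samples. The clones held 146, 310.4 and 115 TPM uninduced and 138, 335 and 82.9 TPM induced. Clones 8 and 15 were far below every WT sample, and uninduced clone 11 was inside the WT range. Bbc3, the BH3-only protein PUMA, was at 7.08, 11.7 and 12.5 TPM in uninduced and 8.21, 24.4 and 19.8 TPM in induced WT samples. It was at 4.99, 7.45 and 3.14 TPM in uninduced and 5.72, 11.7 and 1.71 TPM in induced clones. Bbc3 overlapped between genotypes in both conditions, with WT sample 1 the lowest of WT and clone 11 the highest of the clones. Pmaip1, the BH3-only protein NOXA, was at 94.9, 142 and 157 TPM in uninduced and 159, 148 and 165 TPM in induced WT samples. The 3 clones were close together, at 81.1, 83.04 and 69.6 TPM uninduced and 59.3, 82.5 and 82.4 TPM induced. Every clone lay below every WT sample, clone 11 too, and after induction the log2 fold change was -1.24 (SE 0.19), with an adjusted p of 0.0534 in edgeR and of 6.00e-06 in DESeq2.

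Apaf1, the scaffold of the apoptosome, was at 13.8, 10.9 and 13.9 TPM in uninduced and 36.6, 20.96 and 30.03 TPM in induced WT samples. In the clones it was at 8.93, 10.3 and 12.1 TPM uninduced and 8.505, 13.8 and 13.2 TPM induced. The uninduced genotypes overlapped and every induced WT sample stood above all other libraries. Its log2 fold change with induction was 1.21 in WT (SE 0.21, edgeR adjusted p = 0.0265, and 0.0014 with the WT number as a block) and 0.25 in ΔCdk8 (SE 0.22, edgeR adjusted p = 1). Ei24, a protein of the endoplasmic reticulum, showed the same order, at 104, 74.6 and 85.1 TPM in uninduced and 210.2, 149 and 183 TPM in induced WT samples. It was at 78.4, 80.1 and 93.4 TPM in uninduced and 89.9, 100.1 and 133 TPM in induced clones. Ei24 was higher after induction in each of the 3 clones as well as in each WT number, with a log2 fold change of 0.40 in ΔCdk8 (SE 0.15, edgeR adjusted p = 1) and 1.08 in WT (SE 0.17, edgeR adjusted p = 0.0183, and 0.00082 with the WT number as a block, a call). Trp53inp1, a nuclear protein of stress responses and autophagy, was at 48.4, 44.01 and 75.2 TPM in uninduced and 207, 103 and 151 TPM in induced WT samples. The clones held 12.3, 36.4 and 15.1 TPM uninduced and 13.4, 54.9 and 17.5 TPM induced. With induction in WT its log2 fold change was 1.48 (SE 0.28, edgeR adjusted p = 0.0353, and 0.00571 with the WT number as a block, a call). Genotypes did not overlap within a condition, and clone 11 was again the highest clone. The genotype difference in induced cells was -2.51 on the log2 scale (SE 0.59), with an adjusted p of 0.0704 in edgeR and of 0.000168 in DESeq2.

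Pidd1, the death domain protein that assembles the PIDDosome, was at 13.5, 36.1 and 39.6 TPM in uninduced and 38.03, 57.4 and 59.99 TPM in induced WT samples. It was at 11.3, 24.5 and 8.79 TPM in uninduced and 11.3, 30.7 and 8.04 TPM in induced clones. WT sample 1 was low before induction, below clone 11, and after induction all clones lay below all WT samples. Rps27l, a ribosomal protein whose reads may be shared with its near-identical paralogue Rps27, was at 601, 665 and 726 TPM in uninduced and 742, 627 and 669.8 TPM in induced WT samples. The clones held 366, 589 and 363 TPM uninduced and 336, 560.1 and 374 TPM induced. Every clone was below every WT sample of its condition, and induction left the WT ranges overlapping. Fas, a death receptor, was scarcely detected, with 1, 7 and 14 reads in uninduced WT, 50, 17 and 49 in induced WT, 2, 8 and 3 in uninduced clones and 0, 5 and 2 in induced clones. These reads correspond to at most 1.34 TPM. DESeq2 called Fas in induced WT against both uninduced WT and induced ΔCdk8, and edgeR did not, with adjusted p of 0.0562 and 0.0697.

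Phlda3 and Eda2r, chosen for mention after their values were seen, showed wide gaps between the clones. Phlda3, a pleckstrin homology protein that restrains Akt, was at 36.1, 35.01 and 55.5 TPM in uninduced and 88.2, 64.2 and 83.7 TPM in induced WT samples. In the clones it was at 2.29, 25.7 and 2.85 TPM uninduced and 2.53, 33.3 and 2.74 TPM induced. Every clone lay below every WT sample for Phlda3, clone 11 nearest to them. Eda2r, a receptor of the tumour necrosis factor family on the X chromosome (chrX:97333840-97377216), was at 15.5, 14.5 and 14.2 TPM in uninduced and 22.7, 11.3 and 11.7 TPM in induced WT samples. Eda2r was at 0.250, 7.13 and 0.271 TPM in uninduced and 0.0444, 5.57 and 0.120 TPM in induced clones. Clones 8 and 15 were near 0 for Eda2r, clone 11 at less than the lowest WT value, and all 3 clones were lower after induction. The uninduced genotype difference of Eda2r was -2.59 on the log2 scale (SE 1.24, edgeR adjusted p = 0.278) with all clones, and -6.14 without clone 11 (SE 0.24, edgeR adjusted p = 0.00189). Clones 8 and 15 also held far less Trp53 RNA than clone 11, so the latter fit cannot tell genotype apart from what these clones share. The other genes of this group, Perp, Aen and Triap1, ranged from 9.59 to 92.1, 15.05 to 26.8 and 53.5 to 90.2 TPM over all libraries. None of the 3 was called in any comparison, and Triap1 separated both induced genotypes and WT conditions.

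Among the 4 genes of DNA repair and nucleotide supply, 2 were lower in ΔCdk8 in both conditions and higher in induced WT at an unadjusted p under 0.05, where 8.49%, 11% and 10.8% of all genes were, and the other 2 were not. With a single sample left out of the uninduced comparison, Ercc5 always kept such a p and Polk kept it only without clone 11. Polk, a translesion DNA polymerase, was at 9.15, 7.84 and 9.50 TPM in uninduced and 24.2, 12.3 and 12.9 TPM in induced WT samples. It was at 4.58, 7.37 and 6.85 TPM in uninduced and 4.69, 8.88 and 7.51 TPM in induced clones. Ercc5, the nucleotide excision repair nuclease XPG, was at 20.4, 24.3 and 28.6 TPM in uninduced and 51.5, 32.4 and 42.2 TPM in induced WT samples. The clones were close to each other, at 11.9, 15.1 and 14.1 TPM uninduced and 10.2, 16.8 and 15.7 TPM induced. For both genes every clone, clone 11 included, was below every WT sample of its condition. The genotype difference of Ercc5 in induced cells was -1.70 on the log2 scale (SE 0.26), with an adjusted p of 0.0534 in edgeR and of 9.48e-07 in DESeq2, and in uninduced cells -0.95 (SE 0.21), with 0.13 in edgeR and 0.00312 in DESeq2. Ddb2, a sensor of ultraviolet damage named here after its values were seen, went the other way. It was at 10.4, 10.9 and 10.1 TPM in uninduced and 10.6, 11.3 and 9.66 TPM in induced WT samples, and at 17.02, 10.4 and 21.7 TPM in uninduced and 19.9, 11.3 and 26.8 TPM in induced clones. Clones 8 and 15 were above all WT samples for Ddb2 and clone 11 at or near the WT level, with a log2 fold change of 0.60 in induced cells (SE 0.27, edgeR adjusted p = 0.206). Rrm2b, a ribonucleotide reductase subunit, ranged from 3.09 to 10.2 TPM over all libraries and was not called.

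The 6 genes of stress responses and metabolism were mixed. Sesn1, a sestrin that restrains the growth kinase complex mTORC1, was at 10.8, 8.90 and 8.74 TPM in uninduced and 9.71, 10.2 and 8.57 TPM in induced WT samples. In the clones it was at 17.9, 12.5 and 20.7 TPM uninduced and 15.9, 14.5 and 19.8 TPM induced. It was the one gene of the 35 at which every clone exceeded every WT sample in both conditions. The log2 fold change of Sesn1 was 0.70 uninduced (SE 0.20, edgeR adjusted p = 0.163) and 0.66 induced (SE 0.19, edgeR adjusted p = 0.0989), both short of a call. Its relative Sesn2 ranged from 34.1 to 151 TPM, with the lowest value in clone 8 and the highest in WT sample 3, both after induction.

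Ak1, an adenylate kinase, was at 21.4, 25.8 and 29.7 TPM in uninduced and 49.1, 42.1 and 51.5 TPM in induced WT samples. It was at 18.9, 33.95 and 8.06 TPM in uninduced and 14.2, 35.1 and 6.78 TPM in induced clones. Before induction the clones spanned more than the WT range on both sides, and Ak1 was higher after induction in each WT number but lower in clones 8 and 15. Dcxr, a carbonyl reductase, was at 12.6, 8.33 and 17.2 TPM in uninduced and 54.8, 23.7 and 38.90 TPM in induced WT samples. The clones held 7.15, 11.8 and 5.25 TPM uninduced and 7.40, 19.7 and 4.31 TPM induced. Uninduced genotypes overlapped for Dcxr and induced ones did not (log2 fold change -2.03, SE 0.61, adjusted p = 0.104 in edgeR and 0.00646 in DESeq2). Its log2 fold change with induction in WT was 1.66 (SE 0.35, edgeR adjusted p = 0.0464), and the fit with the WT number as a block called it (edgeR adjusted p = 0.00591). Slc19a2, a thiamine transporter, was at 37.1, 33.3 and 40.9 TPM in uninduced and 73.5, 48.8 and 56.9 TPM in induced WT samples. It was at 14.3, 30.4 and 15.4 TPM in uninduced and 10.5, 36.2 and 14.3 TPM in induced clones. All clones were below all WT samples of their condition, clone 11 by the smallest margin. Fdxr, a mitochondrial electron donor for cytochrome P450 enzymes, ranged from 12.8 to 40.8 TPM, both in induced clones, the lowest in clone 15 and the highest in clone 8.

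The last group, of secreted, surface and other proteins, held both genes that edgeR called. Ptp4a3 (ENSMUSG00000059895, chr15:73723145-73758766), the phosphatase PRL-3, was at 21.9, 22.9 and 27.4 TPM in uninduced and 66.4, 71.5 and 79.5 TPM in induced WT samples. The WT values rose with little spread, from 24.1 ± 2.90 to 72.5 ± 6.57 TPM (SD, n = 3 each), a log2 fold change of 1.71 (SE 0.13, edgeR adjusted p = 0.00237). In the clones Ptp4a3 was at 13.9, 18.4 and 9.07 TPM uninduced and 17.6, 33.04 and 9.17 TPM induced. Clone 11 was higher after induction, clone 8 slightly and clone 15 hardly, and the induced genotypes were apart by -2.07 on the log2 scale (SE 0.45), with an adjusted p of 0.0624 in edgeR and of 0.000165 in DESeq2. Def6 (ENSMUSG00000002257, chr17:28207778-28228608), a guanine nucleotide exchange factor, rose from 16.1, 15.3 and 17.97 TPM in uninduced to 36.2, 44.98 and 47.7 TPM in induced WT samples. Its log2 fold change was 1.42 (SE 0.16, edgeR adjusted p = 0.00636). The clones held 11.7, 18.8 and 10.3 TPM uninduced and 17.3, 33.7 and 11.7 TPM induced. Each clone was higher after induction, and clone 11 came near the lowest induced WT sample.

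Zfp365, a zinc finger protein of replication stress, was at 9.94, 15.4 and 24.3 TPM in uninduced and 69.04, 36.9 and 58.1 TPM in induced WT samples. It was at 0.230, 9.96 and 0.903 TPM in uninduced and 0.250, 15.9 and 0.765 TPM in induced clones. Clones 8 and 15 stayed under 1 TPM, whereas uninduced clone 11 was level with the lowest WT sample. Tap1, a peptide transporter of antigen presentation, was at 2.81, 2.51 and 4.84 TPM in uninduced and 9.24, 5.91 and 7.27 TPM in induced WT samples. The clones held 1.84, 1.35 and 1.97 TPM uninduced and 1.96, 2.82 and 1.40 TPM induced. All clones were below all WT samples of their condition for Tap1, and before induction clone 11 was the lowest of them. Epha2, a receptor tyrosine kinase, was at 82.1, 79.5 and 72.4 TPM in uninduced and 59.4, 88.9 and 83.3 TPM in induced WT samples. It was at 27.4, 71.5 and 33.2 TPM in uninduced and 17.99, 73.7 and 23.02 TPM in induced clones. The WT conditions overlapped for Epha2, and clones 8 and 15 were far below clone 11, which was near WT. With all clones in the fit, edgeR called none of the 6 genes between genotypes, and without clone 11 it called Zfp365 in induced cells. Gdf15, a secreted stress cytokine, ranged from 0.569 to 3.97 TPM, highest in induced clone 11.

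The response to Xist induction was then read within each WT number and each clone. The median log2 TPM ratio of induced over uninduced, over the 34 genes, was 1.16 in WT 1, 0.70 in WT 2 and 0.59 in WT 3, or 0.82 ± 0.30 (SD, n = 3). In the clones it was 0.05 in clone 8, 0.33 in clone 11 and -0.02 in clone 15, or 0.12 ± 0.19 (SD, n = 3). The same medians over all genes lay between -0.05 and 0.02. All 3 WT medians were thus above all 3 clone medians. Of the 34 genes, 28 were higher after induction in each of the 3 WT numbers, against 29.5% of all genes, and none lower in each, against 29.8%. In the clones, 10 were higher in each (Ccng1, Ddb2, Def6, Ei24, Perp, Plk2, Polk, Ptp4a3, Rrm2b and Trp53inp1), against 18.7% of all genes, and 1, Eda2r, lower in each, against 26.8%. Between induced and uninduced ΔCdk8 samples edgeR called none of the 34 genes tested and no other gene. DESeq2 called none of the 34 either, where 0.243% of all genes were called lower and 0% higher. At an unadjusted p under 0.05, 1 was higher, Ei24, against 0.553% of all 14832 genes, and none lower, against 2.09%. With the clone as a block edgeR called none higher, against 0.135% of all genes, and none lower, against 1.27%. At an unadjusted p under 0.05 that fit gave 9 higher, against 12.9% of all genes, and 2 lower, Eda2r and Epha2, against 11.9%. WT sample 1 had the largest median ratio and, of the 3 induced WT samples, the highest value for 21 of the 35 genes. It is also the WT sample with trophoblast markers, whose part was not tested. Without it, 27 of the 35 genes were higher in induced WT at an unadjusted p under 0.05, against 19.3% of all genes, and 2, Aen and Eda2r, lower, against 20.1%.

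**Figure D3:**
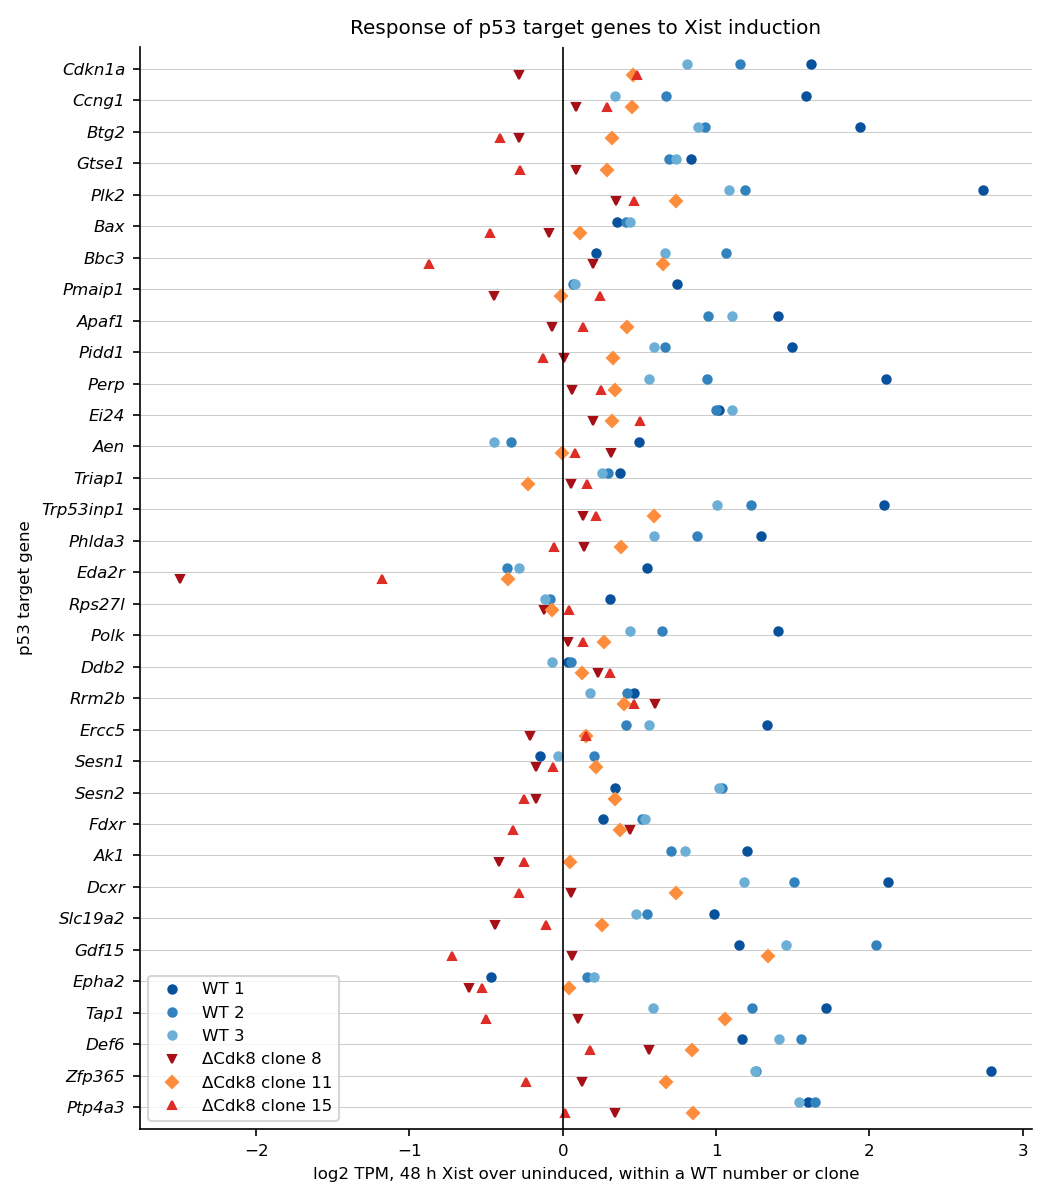
Log2 ratio of TPM after 48 h of Xist over uninduced, within each WT number (circles) and ΔCdk8 clone (triangles and diamonds), for the 34 p53 target genes with a mean of at least 1 TPM. Circles lie right of 0 in all 3 WT numbers for 28 genes, and most clone values lie between them and 0 or just left of it, with Eda2r the farthest to the left in clones 8 and 15.

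The difference of this response between genotypes was tested as an interaction term in a fit to the 12 libraries. It was negative, meaning a lower log2 fold change with induction in ΔCdk8 than in WT, for 33 of the 35 genes, with a median of -0.64 on the log2 scale, against 0.00 over all 15137 genes. edgeR called none of the 35 and no other gene lower (0%). DESeq2 also called none of the 35, where 0.0132% of all genes were called lower and 0.205% higher. In edgeR 3 were lower at an unadjusted p under 0.05 (Apaf1, Ei24 and Fas), against 1.20% of all genes. This count was 1 without WT sample 3 (all genes 0.578%), 2 without WT sample 1 (1.83%), 16 without clone 11 (2.01%) and 24 with the WT number and clone as a block (10.5%). With the WT number and clone as a block, edgeR called 2, against 0.218% of all genes. These were Ak1, at -1.12 (SE 0.17, edgeR adjusted p = 0.00595), and Ptp4a3, at -1.23 (SE 0.17, edgeR adjusted p = 0.00414). The blocked calls depended on single libraries, which were left out after the data were seen. Without WT sample 1 they were Btg2, Ptp4a3 and Sesn2, where 597 of all 15553 genes were called in either direction. Without WT sample 2 the call was Apaf1 (79 of 15564), and without clone 11 it was Ptp4a3 (63 of 15373). Without WT sample 3, clone 8 or clone 15 there were none (67 of 15226, 5 of 15178 and 6 of 15287).

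The 3 clones were not alike. The median log2 TPM ratio of an uninduced clone over the mean of uninduced WT, over the 34 genes, was -0.88 in clone 8, -0.26 in clone 11 and -0.995 in clone 15, against 0.16, -0.02 and 0.23 over all genes. Clone 11 lay above both other clones for 27 of 34 genes uninduced, against 27.4% of all genes, and for 28 of 34 induced, against 28.1%. It lay below both for 4 uninduced (Ddb2, Rrm2b, Sesn1 and Tap1), against 53.8% of all genes, and for 4 induced, against 46.8%. The gap between clone 11 and the other clones was thus not limited to the p53 target genes. Below every uninduced WT sample lay 28 of the 34 genes in clone 8, against 26.0% of all genes, 16 in clone 11, against 28.6%, and 27 in clone 15, against 21.9%. After induction the numbers below every WT sample were closer, at 29 in clone 8, 25 in clone 11 and 29 in clone 15, against 29.8%, 28.9% and 28.2% of all genes. On the log2 scale the widest gaps between clone 11 and the nearer of the other clones were those of Eda2r, Zfp365, Phlda3, Cdkn1a and Ccng1, while Pmaip1, Ercc5, Apaf1 and Ei24 were close in all 3 clones before induction. Relative to the mean of uninduced WT, the Cdkn1a TPM was 4.87% in clone 8, 32.7% in clone 11 and 3.93% in clone 15. The same split, clone 11 apart from clones 8 and 15, was seen for Trp53 RNA, whose part in the difference between the clones was not tested. The number of genes lower in uninduced ΔCdk8 at an unadjusted p under 0.05, 17 of 34 with all clones, was 6 without clone 8, against 4.21% of all genes, 27 without clone 11, against 18%, and 7 without clone 15, against 5.38%. No test was made of clone 11 against the others, since each is 1 clone.

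**Figure D4:**
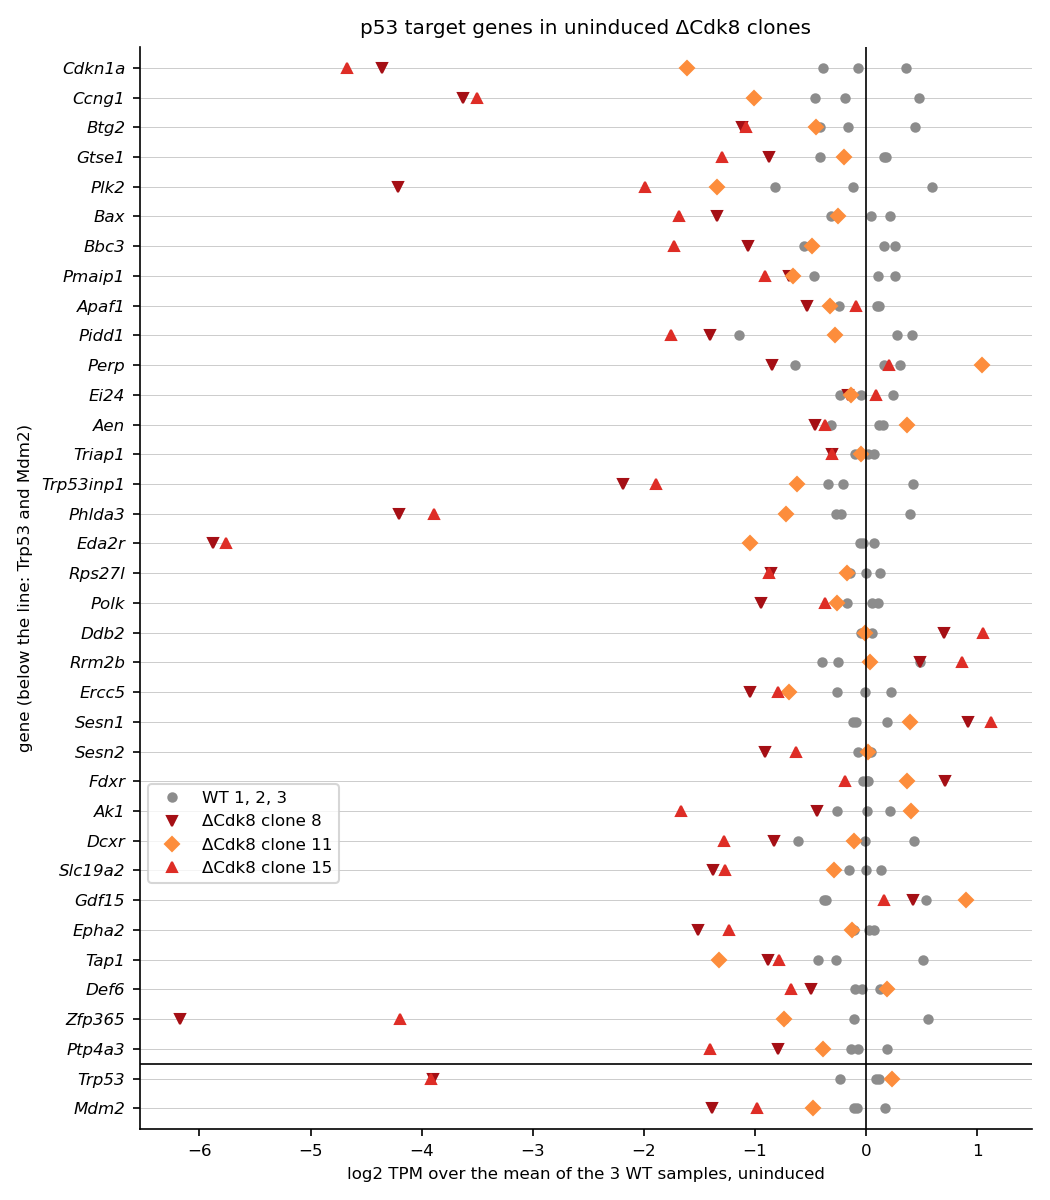
Log2 TPM in uninduced samples over the mean of the 3 uninduced WT samples for the 34 p53 target genes with a mean of at least 1 TPM and, below the line, Trp53 and Mdm2; grey circles are WT samples and coloured symbols clones. Clone 11 (diamonds) lies near the WT circles for most genes, and clones 8 and 15 lie far to the left for Cdkn1a, Ccng1, Phlda3, Eda2r, Zfp365 and Trp53.

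Genes on a list of 21 other p53 targets, 20 of which were tested, were counted the same way, and edgeR called none in any comparison without a block. Mdm2 and Ppm1d are on this list too. In uninduced ΔCdk8, 4 of 20 were lower (Mdm2, Zmat3, Lif and Igfbp3), against 8.49% of all genes, and 3 higher (Tnfrsf10b, Sfn and Cd82), against 11.9%, at an unadjusted p under 0.05. In induced ΔCdk8, 7 were lower (Mdm2, Ppm1d, Zmat3, Psrc1, Tigar, Zfp385a and Lif), against 11% of all genes, and 2 higher (Steap3 and Dram1), against 14.9%. In induced WT, 8 were higher (Mdm2, Ppm1d, Zmat3, Sfn, Psrc1, Plxnb2, Tigar and Lif), against 10.8%, and none lower, against 10.4%. Zmat3, an RNA-binding regulator of splicing, was at 35.97, 30.5 and 37.4 TPM in uninduced and 59.7, 36.1 and 48.3 TPM in induced WT samples, and at 15.6, 23.4 and 19.6 TPM in uninduced and 13.4, 25.1 and 17.3 TPM in induced clones. All clones were below all WT samples, clone 11 included. Sfn, which encodes 14-3-3 sigma, stood the other way between uninduced genotypes, at 87.3, 43.3 and 51.96 TPM in WT and 163, 198 and 92.9 TPM in ΔCdk8. The 35 genes lie on 15 chromosomes, with at most 4 on any one, and Eda2r is the only one on the X chromosome.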

How the data were processed

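RNA was enriched for polyadenylated transcripts and sequenced from stranded libraries. The authors mapped the reads without adapter trimming to the Ensembl GRCm38 reference in CLC Genomics Workbench, and the submitters' processing notes also name mm10. They deposited 1 table per library with raw counts of reads per gene, exon and intron and with TPM values, which the authors computed from exon reads over exon length, scaled to the same total in each library. Whether the counting used strand is not given in the sources used here. RPKM columns were not used. Samples were grouped by the labels, and the p53 target genes and all gene lists were chosen with earlier results of these data known.

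Counts on genes (22170087 to 60798578 per library) were tested in R 4.3.3 with edgeR 4.0.16 by its two-sided quasi-likelihood F test after TMM scaling, without a block. Low genes were removed by filterByExpr at its thresholds of 10 (count) and 15 (total count), and p-values were adjusted after Benjamini and Hochberg over the genes left. Standard errors were computed as the log2 fold change divided by the square root of F. Only the groups compared entered a fit, and all 12 libraries entered the interaction. DESeq2 1.42.0 was an alternative, and an adjusted p it did not give was left out. Same-numbered samples deviated together in all genes, with correlations of 0.421 to 0.613 in WT and 0.739 to 0.840 in ΔCdk8 libraries, against at most 0.263 and 0.0562 for different numbers, so the numbers were taken to pair the samples. The pairing comes from the numbers in the sample titles, and a clone number names the same clone. Blocked values stand beside the results they change. With 3 samples per group, a single exact permutation test could not go below a two-sided p of 0.1.

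TPM ratios were formed with Python 3.11.15, pandas 2.3.3 and NumPy 2.4.6 over genes with a mean of at least 1 TPM, with no pseudocount. Figures were drawn with matplotlib 3.10.9. Levels in every sample are given for genes called in any comparison by edgeR or DESeq2, or with an unadjusted edgeR p under 0.05 between uninduced genotypes or in the interaction. Other genes are given by range, apart from those said to be chosen later. Of the listed regulators and other targets, Cop1 and Trp53cor1 were not matched in the tables, and Trp63 had too few reads to test. The scripts were checked on simulated data. Alternatives were another tool, scaling and filter, unique or exon reads, another threshold, 1 fit of all samples, the block and leaving out each sample. The block with a sample left out and the p53 element with mismatches were chosen after seeing the data.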

Additional observations from a re-analysis of the deposited data

Results flagged for a closer look

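Ak1 and Ptp4a3 were called for a different response to Xist induction between genotypes, but only in fits with a block. In edgeR with the WT number and clone as a block, the log2 fold change with induction was lower in ΔCdk8 than in WT by a difference of -1.12 for Ak1 (SE 0.17, adjusted p = 0.00595) and -1.23 for Ptp4a3 (SE 0.17, adjusted p = 0.00414). Without the block neither passed, in edgeR or in DESeq2. With the block, Ak1 lost its call whichever WT number or clone was left out. Ptp4a3 kept its call without WT sample 1 and without clone 11, and lost it without any other.

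For 4 genes of the lists beyond the 35, all WT numbers went one way after induction and all clones the other. Trp53 had log2 TPM ratios of 0.43, 0.40 and 0.50 in WT and -0.15, -0.04 and -0.58 in clones 8, 11 and 15, a difference of the means of -0.70. The same difference was -0.27 for the checkpoint kinase Chek2, -0.11 for the acetyltransferase Ep300 and 0.28 for the repair factor Xpc. The rule that picked these 4 genes does not test the difference. In the blocked edgeR fit the interaction of Trp53 was -0.61 (adjusted p = 0.00885), short of a 2-fold change.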

How the results depend on the processing

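The number of p53 target genes called depended on the test. For induction in WT, edgeR called 2, DESeq2 11 and the fit with the WT number as a block 7. A fit of all 12 libraries called 1 (Ei24), where 220 of all 15137 genes were called in either direction. An adjusted p under 0.05 with no fold minimum gave 9, and 639 of all 14006 genes. Leaving out a WT sample gave 0 to 5. With the block, chosen after seeing the data, the counts were 11, 1 and 10 without samples 1, 2 and 3. There 1154 of 14196, 44 of 14397 and 372 of 14093 genes were called. Def6 lost its call in the fit of all libraries (adjusted p = 0.107) and without WT 2 (0.195) or WT 3 (0.175), and Ptp4a3 likewise (0.0657, 0.117 and 0.106), all in edgeR. Between uninduced genotypes, 0 calls became 1 in DESeq2 and 0 to 1 with samples left out. Between induced genotypes, 0 became 14 in DESeq2 and 0 to 7 with samples left out, 7 without clone 11. In the fit of all libraries it became 2 (Apaf1 and Ercc5, both lower), against 0.231% of all genes lower and 0.727% higher. The interaction went from 0 to 2 with the pairing as a block. With the block it came to 3 without WT 1, 1 without WT 2 and 1 without clone 11. There 597, 79 and 63 of all genes were called. The median response of the clones, 0.12 on the log2 scale, was -0.0143 (SD 0.71) when the clone was not used as a block. Calls of single genes changed to a call in 74 and from a call in 7 of the alternatives run, with 1107 unchanged and no direction reversed. The block changed no other call among the 35 genes, while over all genes it took the calls for induction in the clones from 0 to 208. Other scalings, filters, unique or exon reads left the counts of calls as they were. For Fas, at most 50 reads in a library limit the precision. Eda2r (28 and 27 reads uninduced, 6 and 6 induced) and Zfp365 (23 and 64, then 26 and 34) were low in clones 8 and 15. Gdf15 had at most 111 reads in a library. All genes are limited by 3 samples per group, with clones that differ among themselves.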

Other observations

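Other listed p53 targets that were higher in ΔCdk8 include Tnfrsf10b, a death receptor, at 32.9, 19.3 and 24.4 TPM in uninduced WT and 50.9, 41.1 and 55.2 TPM in uninduced clones 8, 11 and 15. Every clone stood above every WT sample for Tnfrsf10b (log2 fold change 0.77, SE 0.20, edgeR adjusted p = 0.151), and clone 11 was among them. Psrc1, a microtubule regulator, was higher in all induced than in all uninduced WT samples, at 165, 172 and 183 against 92.03, 119 and 126 TPM (log2 fold change 0.68, SE 0.15, edgeR adjusted p = 0.0505). Tigar, an enzyme of sugar phosphate metabolism, was at 56.5, 43.4 and 47.4 TPM in uninduced and 80.8, 65.5 and 73.3 TPM in induced WT samples, and at 42.6, 44.7 and 42.8 TPM in uninduced and 49.6, 55.5 and 52.7 TPM in induced clones. Tigar was higher after induction in each of the 3 WT numbers and each of the 3 clones. Trp73, a relative of Trp53, was at 0.407, 2.99 and 4.57 TPM in uninduced and 4.92, 7.56 and 9.81 TPM in induced WT samples, and at 0.0964, 1.45 and 0.235 TPM in uninduced and 0.0848, 1.43 and 0 TPM in induced clones. These genes were chosen for mention after their values were seen.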
